A study of Mus musculus with 9 samples.

Results

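The expression of 50 genes of the cell cycle and of DNA replication was examined in the ventricles of transgenic mouse hearts. The genes were chosen by name, and a probe set was counted as theirs where the array annotation gave it exactly 1 of the 50 symbols. Of the 50 genes, 46 had at least 1 such probe set, against 8251 genes with a single-symbol probe set on the whole array, and 17 of the 46 had several. These 46 genes had 66 probe sets of the 10833 with a single symbol. Cdk6, Ccnb1 and Cdc25b had no such probe set in the annotation used here, and Tyms had only 2 that it shares with the pseudogene Tyms-ps.

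Each of 9 mice, all female and 3 months old, gave total RNA of both ventricles for 1 array, and there were 3 mice in each of 3 groups. In IGF1R-caPI3K mice a transgene for the receptor of insulin-like growth factor 1 (IGF1R) was joined by a constitutively active form of the phosphoinositide 3-kinase p110 (PI3K). IGF1R-dnPI3K mice carried the IGF1R transgene together with a dominant negative form of the same kinase. IGF1R mice carried the IGF1R transgene alone. All 3 groups therefore overexpressed IGF1R, and no group shows the heart without that transgene. The labels also speak of non-transgenic littermates and of mice with a PI3K transgene alone, which were not analysed here. The labels give neither the promoter behind any transgene nor the cells that express it. The 3 comparisons ask whether the cell cycle genes differed with the active kinase and with the inhibitory one on an IGF1R background, and between the 2 crosses. They share their groups, so they are not independent of each other.

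In the cell cycle, D-type cyclins with Cdk4 or Cdk6 phosphorylate the retinoblastoma protein and its relatives, which releases E2F transcription factors and starts the genes of DNA synthesis. Cyclin E with Cdk2 then fires origins that carry the minichromosome maintenance (MCM) helicase, the clamp Pcna holds the polymerases on the DNA, and Cdk1 with cyclins A and B drives mitosis. The receptor IGF1R signals through PI3K to Akt, a pathway known to promote growth and entry into the cycle in many cell types. Most mouse cardiomyocytes leave the cell cycle soon after birth, whereas fibroblasts, endothelial cells and immune cells of the ventricle can still divide. In RNA of whole ventricles, fewer cells of a type and less RNA per cell cannot be told apart.

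The promoters of 5 members are shown. Of these, Cdk4, Ccne1 and Pcna had a difference past the threshold, and Cdk1 and Mcm5 carry the motif letters that the group is known for. Hus1 also had a difference past the threshold, but its promoter is not printed. Each promoter is the 250 bases before the annotated start, read 5′ to 3′ on the gene's own strand, from RefSeq in build GRCm38.p6. The Cdk4 window lies at chr10:127063285-127063534 on the plus strand, that of Ccne1 at chr7:38107491-38107740 on the minus strand, that of Cdk1 at chr10:69352913-69353162 on the minus strand, that of Mcm5 at chr8:75109259-75109508 on the plus strand and that of Pcna at chr2:132253181-132253430 on the minus strand. Capitals mark the letters searched on both strands: the E2F words TTTCGCGC, TTTGGCGC, TTTCCCGC and TTTGCCGC, the E-box CACGTG, the cell cycle homology region TTTGAA, and CCAAT, which reads ATTGG on the other strand.
Cdk4: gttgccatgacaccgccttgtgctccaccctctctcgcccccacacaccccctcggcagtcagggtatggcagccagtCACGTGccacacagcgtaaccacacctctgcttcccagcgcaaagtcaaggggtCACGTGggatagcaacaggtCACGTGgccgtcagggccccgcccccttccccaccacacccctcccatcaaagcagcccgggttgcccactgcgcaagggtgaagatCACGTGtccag
Ccne1: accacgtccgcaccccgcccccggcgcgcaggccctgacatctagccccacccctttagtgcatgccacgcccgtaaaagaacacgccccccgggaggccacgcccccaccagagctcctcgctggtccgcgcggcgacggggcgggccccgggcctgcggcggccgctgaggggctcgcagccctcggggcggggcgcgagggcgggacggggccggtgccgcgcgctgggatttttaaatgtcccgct
Cdk1: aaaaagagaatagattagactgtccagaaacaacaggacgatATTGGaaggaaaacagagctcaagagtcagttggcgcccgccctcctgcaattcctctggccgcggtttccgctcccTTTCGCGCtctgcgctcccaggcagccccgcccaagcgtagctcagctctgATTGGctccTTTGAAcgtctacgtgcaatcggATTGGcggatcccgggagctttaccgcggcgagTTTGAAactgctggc
Mcm5: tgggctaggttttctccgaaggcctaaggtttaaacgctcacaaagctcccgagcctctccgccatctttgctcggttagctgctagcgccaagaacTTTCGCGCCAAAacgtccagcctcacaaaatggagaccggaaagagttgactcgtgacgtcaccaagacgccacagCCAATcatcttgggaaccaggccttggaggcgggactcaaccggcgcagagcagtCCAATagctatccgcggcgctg
Pcna: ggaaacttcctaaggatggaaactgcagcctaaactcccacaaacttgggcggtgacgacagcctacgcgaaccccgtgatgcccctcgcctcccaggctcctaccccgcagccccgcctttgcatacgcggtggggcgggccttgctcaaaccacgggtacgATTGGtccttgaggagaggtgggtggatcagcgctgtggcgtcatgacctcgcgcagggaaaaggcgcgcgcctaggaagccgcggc

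The Cdk4 window held 4 copies of CACGTG, which starts 172, 118, 98 and 11 bases before the start, and none of the other letters. In the Cdk1 window stood 1 E2F word, 3 CCAAT letters and 2 copies of TTTGAA. Mcm5 had 2 E2F words that overlap on opposite strands, and 2 CCAAT letters. Pcna had 1 CCAAT match and Ccne1 had no match to any of the letters searched. The Hus1 window, not printed, held 2 copies of TTTGAA and none of the other letters. Over the 46 promoters that RefSeq gave for 40 of the listed genes, 9 (19.6%) held an E2F word, against 1.86% of all 32851 promoters. CCAAT was found in 26 (56.5%) of them, against 33.8% of all promoters. The letters TTTGAA stood in 10 (21.7%), against 16% of all, and CACGTG in 4 (8.7%), against 6.02% of all. These matches are descriptions of the windows, and the letters were chosen with the promoters printed here in view.

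The deposited values are signal intensities on a linear scale, scaled by array to a common 2% trimmed mean of 500.3 to 500.4. The median signal of an array was 174.6 to 185.8 in IGF1R-caPI3K, 160.6 to 185.1 in IGF1R-dnPI3K and 190 to 196.7 in IGF1R. IGF1R-dnPI3K mouse 3 stood apart: its mean correlation with the other arrays was 0.927, against 0.947 to 0.956 for the rest, and its pyruvate carboxylase control ratio of 3′ to 5′ signal was 3.254, against 1.396 to 2.115. The 3′ to 5′ ratio of the spiked-in CreX control was 1.744 to 1.89 in IGF1R-caPI3K and 1.787 to 1.83 in IGF1R-dnPI3K, against 1.049 to 1.262 in IGF1R. For Gapdh that ratio was 0.843 to 0.873 in IGF1R-caPI3K and 0.844 to 0.943 in IGF1R-dnPI3K, against 0.747 to 0.818 in IGF1R. These ratios separated both crosses from the IGF1R group, so hybridisation and genotype cannot be told apart for the comparisons against IGF1R. The mouse numbers in the titles fall into 3 number series, and what a series stands for is not given. IGF1R-dnPI3K mice 2 and 3 are the only mice of theirs.

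Y-linked probe sets, which have no target in female mice, reached at most 59.4, which serves here as a mark of the signal that a probe set without a target can give. Of the 66 probe sets, 36 were above 59.4 on all 9 arrays and 7 on none. The filter on dim probe sets asked for a signal over the array's own 40th percentile on 3 or more arrays, and 41 probe sets of 35 genes passed it. Of these 41, 25 were above it on all arrays. Left without a test were 25 probe sets, and with them 11 genes altogether: Ccne2, E2f1, Chek1, Aurka, Birc5, Bub1, Top2a, Rrm2, Cdc6, Mcm6 and Prim1. Several of these, among them the topoisomerase gene Top2a and the mitotic kinase genes Aurka and Bub1, are commonly used to mark dividing cells. A signal cannot be set against that of another probe set, so levels are compared only between groups.

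**Figure D1:**
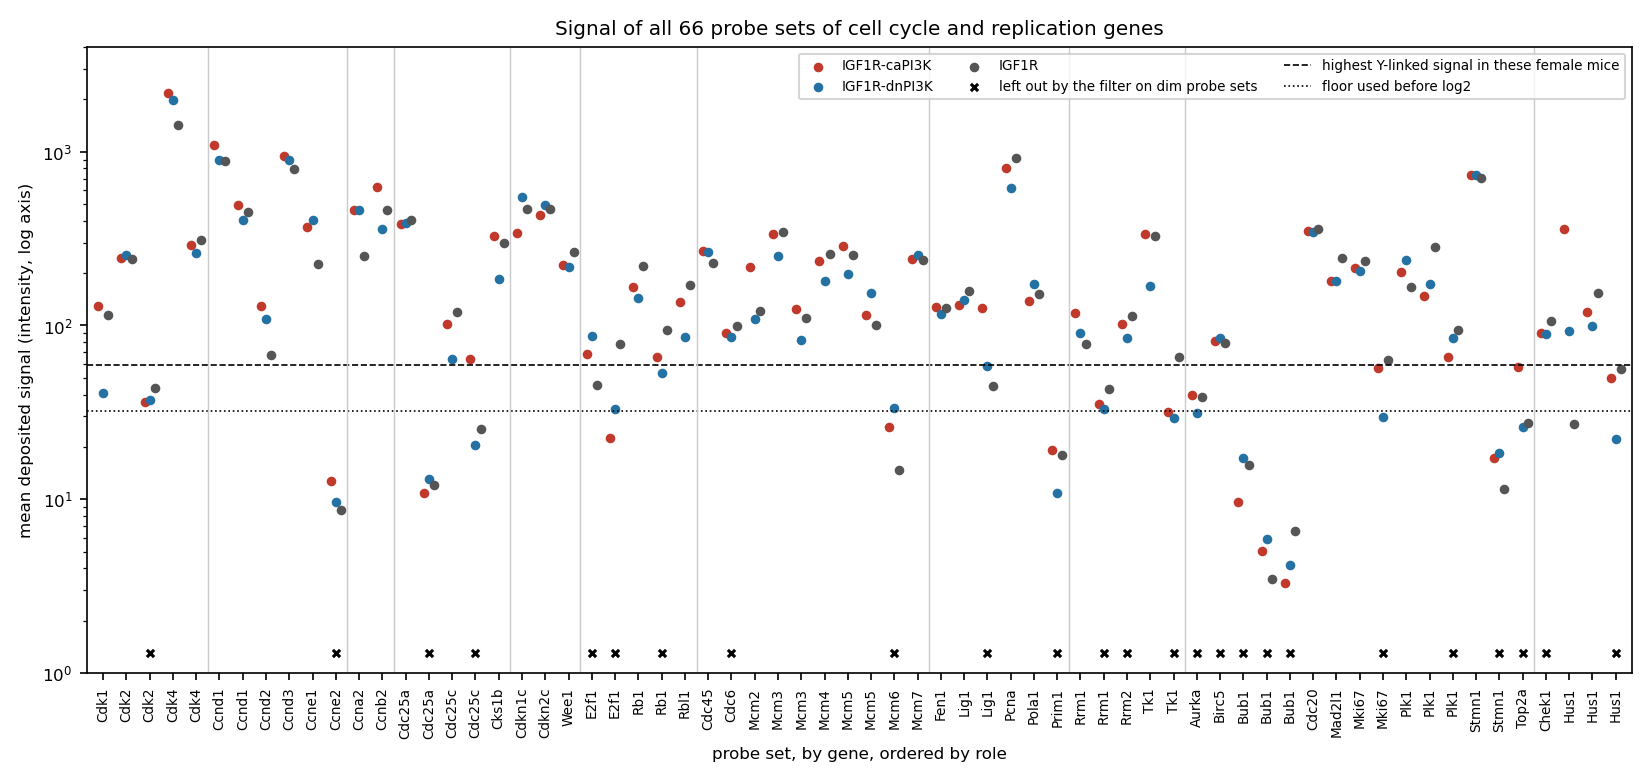
Mean deposited signal (log axis) of each of the 66 probe sets in IGF1R-caPI3K (red), IGF1R-dnPI3K (blue) and IGF1R (grey) hearts, 3 mice each, with the probe sets ordered by role on the horizontal axis. Crosses mark the 25 probe sets left out by the filter, the dashed line the highest Y-linked signal of 59.4, and the dotted line the floor of 32.4 used before log2.

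In IGF1R-caPI3K hearts, 2 of the 41 probe sets rose relative to IGF1R hearts, those of Cdk4 and Hus1, and 0 fell at an adjusted p under 0.05 (limma, Benjamini-Hochberg over 7898 probe sets). That is 4.88% of the members' probe sets, against 0.215% of all probe sets tested (17 of 7898), where 0.152% were higher and 0.0633% lower. Of the 2, Hus1 met the filter on 3 IGF1R-caPI3K arrays, 1 of IGF1R-dnPI3K and 0 of IGF1R. It was thus tested because it was high in the group called higher, and the share is not read as a result about the members. At an unadjusted p under 0.05 there were 7 of the 41 (6 higher and 1 lower), a share of 17.1% against 18.4% of all (8.5% higher and 9.86% lower). The groups did not overlap for 11 of the 41 (26.8%), 7 higher and 4 lower, against 32.9% of all (14% higher and 18.8% lower). The median log2 difference of the 41 was 0.051, against -0.035 over all. With quantile normalization the calls over all probe sets were 45 higher and 32 lower, against 12 higher and 5 lower as deposited. With only these 2 groups in the fit, 3 of the 41 passed (Cdk4, Hus1 and Ccne1), against 699 of all 7898. With any 1 mouse of these 2 groups left out, with no filter, or with the number series as a block, 0 of the members' probe sets passed in limma, while 4 to 9 had an unadjusted p under 0.05.

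In IGF1R-dnPI3K hearts, 2 probe sets rose relative to IGF1R hearts, those of Cdk4 and Ccne1, and 1 fell, that of Pcna. That is 7.32% of the 41, against 13.5% of all probe sets tested (1066 of 7898), where 5.7% were higher and 7.8% lower. Unadjusted, 12 of the 41 (29.3%) passed, 4 higher and 8 lower, against 32.2% of all (12.8% higher and 19.5% lower). The groups did not overlap for 7 (17.1%), 3 higher and 4 lower, against 34.4% of all (13.6% higher and 20.8% lower). The median log2 difference was -0.117 over the 41 and -0.094 over all. Scaling the arrays to a common median moved the median of all to 0.075 and that of the 41 to 0.053, and turned the split of all calls from 450 higher and 616 lower into 832 higher and 333 lower. Cdk4 and Ccne1 also passed under that scaling, and Pcna did not. With only the 2 groups compared in the fit, 0 of the 41 passed in limma (7 at an unadjusted p under 0.05), against 132 of all 7898.

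Between the 2 crosses, 0 of the 41 probe sets passed in limma, and 8 (19.5%) did at an unadjusted p under 0.05, 7 higher in IGF1R-caPI3K and 1 lower. Over all probe sets tested, 98 passed (1.24%, with 0.734% higher and 0.506% lower), and 15.4% did unadjusted (8.95% higher and 6.43% lower). The groups did not overlap for 9 of the 41 (22%), 7 higher and 2 lower, against 19.5% of all (10.9% higher and 8.66% lower). Of the 41 estimates 32 (78%) were above 0, against 56.9% of all, and the median log2 difference was 0.129, against 0.049. With the number series as a block that median was -0.09. Without IGF1R-dnPI3K mouse 1, 7 of the 41 passed, 6 higher and 1 lower (Ccnb2, Ccnd1, Cks1b, Hus1, Mcm3 and Mcm5, and Cdkn1c), which is 17.1% against 6.82% of all (539 of 7898, 320 higher and 219 lower). Without mouse 3, 0 of the 41 passed in limma (4 at an unadjusted p under 0.05), against 0.798% of all.

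**Figure D2:**
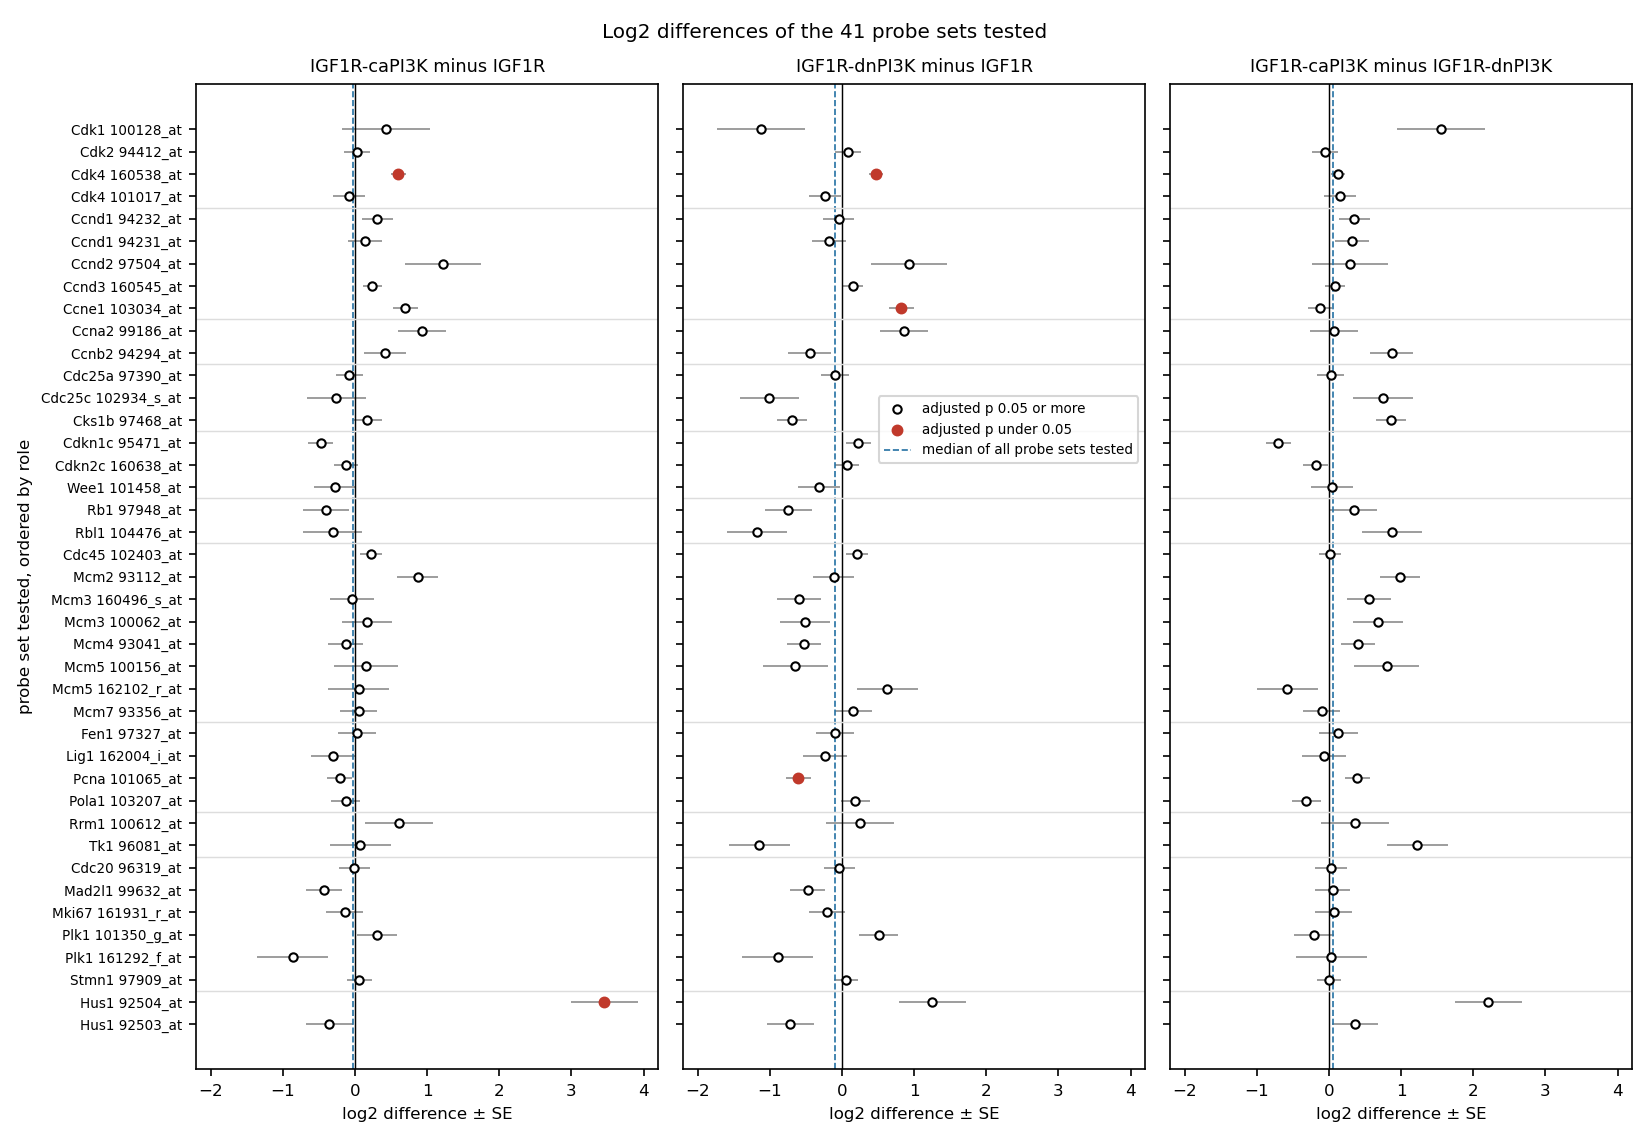
Log2 difference ± SE of the 41 probe sets tested, ordered by role down the page, for IGF1R-caPI3K minus IGF1R (left), IGF1R-dnPI3K minus IGF1R (middle) and IGF1R-caPI3K minus IGF1R-dnPI3K (right). Filled points passed at an adjusted p under 0.05 (2, 3 and 0 probe sets), and the dashed line is the median of all 7898 probe sets tested.

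Among the cyclin-dependent kinases, Cdk4, the partner of the D-type cyclins in early G1, was higher in both crosses than with IGF1R alone. Its probe set 160538_at read 2098.5, 2254.6 and 2147.2 in IGF1R-caPI3K, 1967.3, 2013.8 and 1970.5 in IGF1R-dnPI3K, and 1511, 1470.8 and 1313.2 in IGF1R. All 6 mice of the crosses lay above all 3 IGF1R mice. The log2 difference was 0.60 ± 0.10 (SE) in IGF1R-caPI3K (adjusted p = 0.0482) and 0.47 ± 0.10 in IGF1R-dnPI3K (adjusted p = 0.01839). That is 1.52-fold in IGF1R-caPI3K and 1.39-fold in IGF1R-dnPI3K. The 2 crosses did not overlap either, but differed by only 0.13 ± 0.10 (adjusted p = 0.5628, interval -0.09 to 0.35). The call in IGF1R-caPI3K was lost without any 1 mouse of IGF1R-caPI3K or IGF1R, or without IGF1R-dnPI3K mouse 2 (0.54 to 0.64, adjusted p 0.06055 to 0.1855), and that in IGF1R-dnPI3K without IGF1R mouse 2 (0.49, adjusted p = 0.05256) or 3 (0.41, adjusted p = 0.07378). With a common median for all arrays the difference was 0.70 in IGF1R-caPI3K (adjusted p = 0.05042) and 0.64 in IGF1R-dnPI3K (adjusted p = 0.0127). With the number series as a block the estimate was 0.60 in IGF1R-caPI3K (adjusted p = 0.06913) and 0.54 in IGF1R-dnPI3K (adjusted p = 0.2689). Within the series that holds 1 mouse of each group, Cdk4 read 2098.5 in IGF1R-caPI3K and 1967.3 in IGF1R-dnPI3K, against 1313.2 in IGF1R.

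The other Cdk4 probe set did not show this. 101017_at read 238.5, 294.9 and 336.6 in IGF1R-caPI3K, 309.3, 262.7 and 212.1 in IGF1R-dnPI3K, and 237.6, 378.3 and 314.8 in IGF1R. The 3 groups overlapped, with log2 differences from IGF1R of -0.09 ± 0.22 in IGF1R-caPI3K and -0.24 ± 0.22 in IGF1R-dnPI3K. The direction for the gene therefore rests on 1 of its probe sets.

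Cdk1, the kinase of mitosis, was low in all 3 IGF1R-dnPI3K mice and uneven elsewhere. Its signal was 140.7, 158.7 and 87.6 in IGF1R-caPI3K, 57.5, 23.1 and 41.8 in IGF1R-dnPI3K, and 18.9, 209.3 and 117.4 in IGF1R. The crosses did not overlap, whereas the IGF1R mice spanned the range of both. All 3 IGF1R-dnPI3K values were under the highest Y-linked signal, so the size of the difference between the crosses is uncertain. Its estimate was 1.55 ± 0.61 on the log2 scale (interval 0.21 to 2.89) and did not pass (adjusted p = 0.2644 in limma). Against IGF1R, IGF1R-caPI3K gave 0.43 ± 0.61 (adjusted p = 0.741) and IGF1R-dnPI3K missed the threshold too (adjusted p = 0.2335), both with overlap. Cdk2, the partner of cyclins E and A, read 199.8 to 276.2 in IGF1R-caPI3K, 239.7 to 261.3 in IGF1R-dnPI3K and 199 to 274.8 in IGF1R on 94412_at, with log2 differences from IGF1R of 0.03 ± 0.19 in IGF1R-caPI3K and 0.08 ± 0.19 in IGF1R-dnPI3K. Its dimmer probe set, at 13.6 to 82.7, was not tested.

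**Figure D3:**
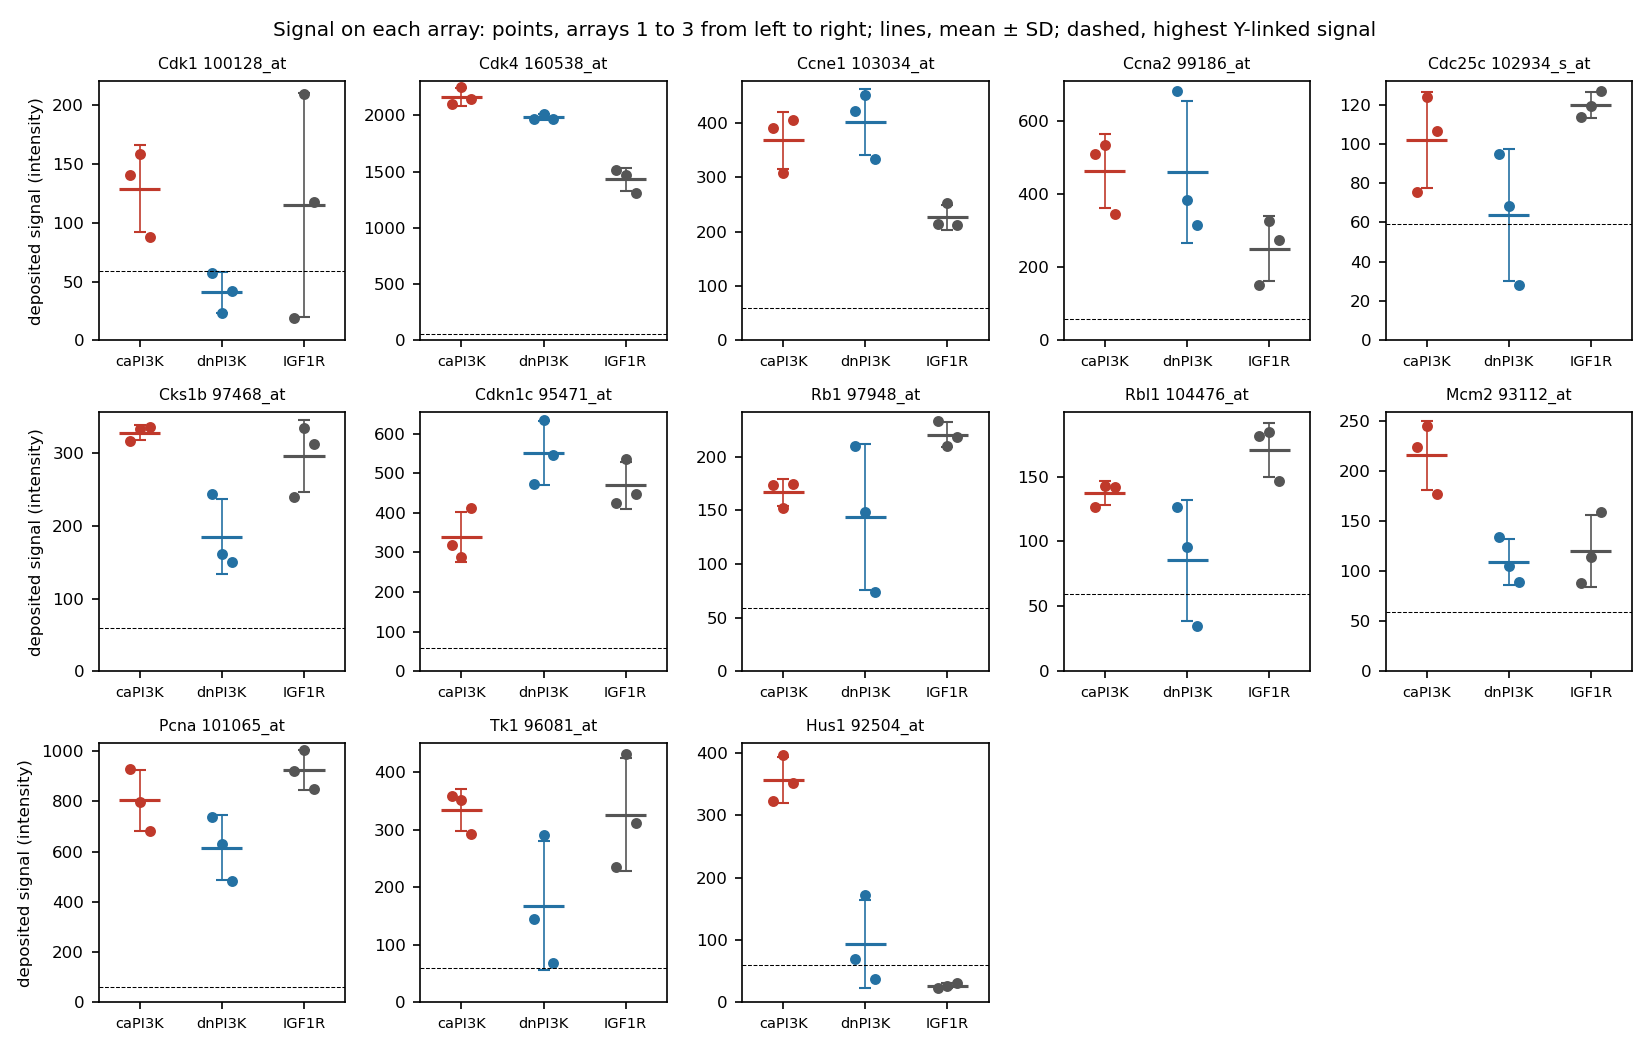
Deposited signal (linear axis) on each array for the 13 probe sets of members with a difference past the threshold, or with groups apart, an unadjusted p under 0.05 and a log2 difference of at least 0.5. Each panel gives IGF1R-caPI3K, IGF1R-dnPI3K and IGF1R from left to right, points are mice 1 to 3, lines are the mean ± SD (n = 3), and the dashed line is the highest Y-linked signal; Cdk4 and Ccne1 are higher in both crosses and Hus1 is high only on the IGF1R-caPI3K arrays and IGF1R-dnPI3K mouse 2.

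Of the G1 cyclins, Ccne1, the cyclin E that activates Cdk2 at the start of S phase, lay higher in both crosses and passed the test in IGF1R-dnPI3K. It read 391.4, 308.4 and 405.3 in IGF1R-caPI3K, 422.2, 450.7 and 333.5 in IGF1R-dnPI3K, and 214.7, 252.3 and 212.2 in IGF1R. Every mouse of the crosses was above every IGF1R mouse, and the crosses overlapped each other. Ccne1 rose in IGF1R-dnPI3K by 0.82 ± 0.17 on the log2 scale (adjusted p = 0.01839, 1.77-fold). In IGF1R-caPI3K the estimate was 0.70 ± 0.17 and missed the threshold (adjusted p = 0.09798), which it passed without IGF1R-dnPI3K mouse 3 (0.70, adjusted p = 0.02697). With only the 2 groups compared in the limma fit, IGF1R-caPI3K passed (adjusted p = 0.03048) and IGF1R-dnPI3K did not (adjusted p = 0.05573). With array weights both passed (adjusted p 0.01894 in IGF1R-caPI3K and 0.005421 in IGF1R-dnPI3K). The call is therefore not particular to 1 cross. The crosses differed by -0.13 ± 0.17, with an interval of -0.51 to 0.26. Blocked by number series, the estimate in IGF1R-dnPI3K was 0.90 (adjusted p = 0.3241), and in the series with 1 mouse of each group the values were 391.4 in IGF1R-caPI3K and 422.2 in IGF1R-dnPI3K, against 212.2 in IGF1R. The call in IGF1R-dnPI3K was lost without IGF1R mouse 1 (0.79, adjusted p = 0.05683) or 3 (0.78, adjusted p = 0.0684).

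The D-type cyclins, which carry growth signals to Cdk4, gave 0 calls in limma in any comparison, and of their probe sets only Ccnd2 in IGF1R-caPI3K against IGF1R had an unadjusted p under 0.05. Ccnd1 on 94232_at read 1167.7, 1053.6 and 1041.4 in IGF1R-caPI3K, 1282.2, 683.4 and 704.3 in IGF1R-dnPI3K, and 985.7, 816.2 and 838.7 in IGF1R. IGF1R-caPI3K was above IGF1R without overlap (0.31 ± 0.21, adjusted p = 0.4696), and IGF1R-dnPI3K mouse 1 was the highest of all 9. On its second probe set, 94231_at, the groups overlapped (0.14 ± 0.23 in IGF1R-caPI3K and -0.18 ± 0.23 in IGF1R-dnPI3K, against IGF1R). Ccnd3 read 905.2 to 1005.8 in IGF1R-caPI3K, 739.2 to 982.2 in IGF1R-dnPI3K and 755.4 to 873.8 in IGF1R, with 0.24 ± 0.14 in IGF1R-caPI3K (adjusted p = 0.3769). Ccnd2 was 122 to 140.5 in IGF1R-caPI3K and 77.5 to 145.6 in IGF1R-dnPI3K, against 23.7, 143.5 and 36.2 in IGF1R, where 1 mouse reached the level of the crosses. Its estimates carry that spread, at 1.22 ± 0.53 in IGF1R-caPI3K (adjusted p = 0.2528) and 0.93 ± 0.53 in IGF1R-dnPI3K (adjusted p = 0.2501). Ccne2 stayed at or under 15.5 on every array and was not tested.

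The S and M phase cyclins gave 0 calls in limma, with 1 of their 2 probe sets at an unadjusted p under 0.05 in each comparison. Ccna2, which serves Cdk2 in S phase and Cdk1 in G2, read 510.4, 534.6 and 347.4 in IGF1R-caPI3K, 682.6, 385.8 and 314.8 in IGF1R-dnPI3K, and 153, 327.7 and 273.7 in IGF1R. The IGF1R-caPI3K mice were all above the IGF1R mice, by 0.93 ± 0.33 on the log2 scale (adjusted p = 0.1809), and IGF1R-dnPI3K overlapped IGF1R at 0.86 ± 0.33 (adjusted p = 0.1022), or at 1.03 with a common median (adjusted p = 0.04176). IGF1R-dnPI3K mouse 1 was again the highest of all. Ccnb2, a cyclin of mitosis, was 655.1, 738.6 and 474.4 in IGF1R-caPI3K, 553.7, 295.3 and 231.3 in IGF1R-dnPI3K, and 370.2, 520.3 and 499.2 in IGF1R. Its groups overlapped in every comparison, with 0.87 ± 0.30 between the crosses (unadjusted p = 0.01368 in limma, adjusted p = 0.2014).

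The activators of these kinases gave 0 calls in limma in any comparison, with 2 of their 3 probe sets at an unadjusted p under 0.05 in IGF1R-dnPI3K against IGF1R, 1 between the crosses and 0 in IGF1R-caPI3K against IGF1R. Cks1b, a small subunit of cyclin-dependent kinases that also helps the ubiquitin ligase with Skp2 to remove the inhibitor Cdkn1b, read 316.4, 333.6 and 335.9 in IGF1R-caPI3K, 244.4, 161.2 and 151 in IGF1R-dnPI3K, and 240.4, 335 and 313.1 in IGF1R. The crosses did not overlap, at 0.86 ± 0.21 (adjusted p = 0.08656). IGF1R-dnPI3K against IGF1R was -0.69 ± 0.21 (adjusted p = 0.05089), with overlap. Over 20 alternatives the difference between the crosses ran from 0.45 with the number series as a block to 1.07 without IGF1R-dnPI3K mouse 1 (adjusted p 0.8896 and 0.01003), and that from IGF1R ran from -0.28 to -0.91 under the same settings (adjusted p 0.738 and 0.008823). Without IGF1R-dnPI3K mouse 3 they were 0.73 between the crosses (adjusted p = 0.1744) and -0.56 against IGF1R (adjusted p = 0.1318). Cdc25c, a phosphatase that activates Cdk1, read 75.5, 123.9 and 106.4 on 102934_s_at in IGF1R-caPI3K, 95.1, 68.5 and 28.1 in IGF1R-dnPI3K, and 113.5, 119.1 and 126.8 in IGF1R. IGF1R-dnPI3K lay below IGF1R without overlap (-1.01 ± 0.41, adjusted p = 0.1207). That estimate was -1.34 without IGF1R-dnPI3K mouse 1 (adjusted p = 0.03978), -0.57 without mouse 3 (adjusted p = 0.3113), -0.17 with the number series as a block (adjusted p = 0.94) and -0.12 with the floor at the 40th percentile (adjusted p = 0.4876). Its suffix means that other transcripts may share its probes, and the second one, at 40.5 to 76.4 in IGF1R-caPI3K, 10.4 to 38.3 in IGF1R-dnPI3K and 11.9 to 38.8 in IGF1R and under the filter, was not tested. Cdc25a, which acts on Cdk2, had 357.6 to 411.3 in IGF1R-caPI3K, 293.1 to 492 in IGF1R-dnPI3K and 366.7 to 466.4 in IGF1R, with all groups overlapping.

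The inhibitors of the kinases gave 0 calls in limma, with 1 of 3 probe sets at an unadjusted p under 0.05 in IGF1R-caPI3K against IGF1R, 1 between the crosses and 0 in IGF1R-dnPI3K against IGF1R. Cdkn1c, the p57 protein that binds and blocks cyclin-dependent kinases, read 318.3, 288.4 and 410.9 in IGF1R-caPI3K, 471.5, 635 and 546.1 in IGF1R-dnPI3K, and 424.3, 535 and 447.9 in IGF1R. All IGF1R-caPI3K mice were below all mice of the other groups. The log2 difference was -0.71 ± 0.18 against IGF1R-dnPI3K (adjusted p = 0.08733) and -0.48 ± 0.18 against IGF1R (adjusted p = 0.1894), both short of the threshold. The difference between the crosses was -0.81 without IGF1R-dnPI3K mouse 1 (adjusted p = 0.03021), -0.60 without mouse 2 (adjusted p = 0.231), -0.71 without mouse 3 (adjusted p = 0.152) and -0.56 with the number series as a block (adjusted p = 0.8243). Cdkn2c, the p18 inhibitor of Cdk4 and Cdk6, had 361 to 481.7 in IGF1R-caPI3K, 413.4 to 601.8 in IGF1R-dnPI3K and 451.1 to 490.8 in IGF1R, and Wee1, the kinase that holds Cdk1 inactive, had 143.2 to 277 in IGF1R-caPI3K, 169 to 301.9 in IGF1R-dnPI3K and 237 to 314.3 in IGF1R. Both overlapped in every comparison.

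Of the E2F and pocket protein genes, the pocket proteins Rb1 and Rbl1, which hold E2F factors in check, were lower in both crosses without overlap, and neither passed in limma (2 of 2 at an unadjusted p under 0.05 in IGF1R-dnPI3K against IGF1R, 0 in the other comparisons). Rb1 on 97948_at read 173.7, 152.4 and 174.6 in IGF1R-caPI3K, 209.4, 148 and 73.5 in IGF1R-dnPI3K, and 233, 209.7 and 218.4 in IGF1R. The highest IGF1R-dnPI3K mouse, at 209.4, lay just under the lowest IGF1R mouse, at 209.7. The estimates were -0.40 ± 0.32 in IGF1R-caPI3K (adjusted p = 0.5381) and -0.74 ± 0.32 in IGF1R-dnPI3K (adjusted p = 0.1409). Its second probe set, not tested, gave 53.5 to 72.3 in IGF1R-caPI3K, 40 to 71.4 in IGF1R-dnPI3K and 85.4 to 101.5 in IGF1R, again with the IGF1R mice highest. Rbl1, the p107 relative, had 126.6, 142.7 and 142 in IGF1R-caPI3K, 126.4, 95.5 and 34.8 in IGF1R-dnPI3K, and 181, 184.2 and 146.7 in IGF1R. For Rbl1 the estimates were -0.31 ± 0.41 in IGF1R-caPI3K (adjusted p = 0.7236) and -1.18 ± 0.41 in IGF1R-dnPI3K (adjusted p = 0.07806), where mouse 3 lay far below the other 2. Both estimates in IGF1R-dnPI3K moved widely with the mice used. Rb1 was -1.08 and passed without IGF1R-dnPI3K mouse 1 (adjusted p = 0.02544), but was -0.32 without mouse 3 (adjusted p = 0.3609) and -0.10 with the number series as a block (adjusted p = 0.9537). Rbl1 was -1.56 without mouse 1 (adjusted p = 0.02029), -0.63 without mouse 3 (adjusted p = 0.1349), -0.26 with the block (adjusted p = 0.896) and -0.56 with the floor at the 40th percentile (adjusted p = 0.0289). E2f1 was between 11.3 and 110.5 on its 2 probe sets and was not tested.

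The origin licensing and helicase genes gave 0 calls in limma, with 1 probe set at an unadjusted p under 0.05 in each comparison, and 1 of their 8 probe sets tested, that of Mcm2, had groups apart in a comparison. Mcm2, a subunit of the replicative helicase, read 224.7, 245.1 and 177.7 in IGF1R-caPI3K, 134.5, 105.3 and 89.1 in IGF1R-dnPI3K, and 88.2, 114.5 and 159.3 in IGF1R. Every IGF1R-caPI3K mouse was above every other mouse. The log2 difference was 0.87 ± 0.28 against IGF1R (adjusted p = 0.1465) and 0.99 ± 0.28 against IGF1R-dnPI3K (adjusted p = 0.1325), while IGF1R-dnPI3K and IGF1R overlapped at -0.12 ± 0.28.

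The other subunits overlapped between groups. Mcm5 on 100156_at had 299.4, 352.7 and 209.6 in IGF1R-caPI3K, 361.5, 157.7 and 73.9 in IGF1R-dnPI3K, and 248, 259.4 and 250.9 in IGF1R, so that the IGF1R-dnPI3K mice held both the highest and the lowest value. Its second probe set, 162102_r_at, gave an estimate of the other sign, with 0.63 ± 0.43 in IGF1R-dnPI3K against -0.65 ± 0.45 on the first, and neither estimate passed. Mcm3 on 160496_s_at read 294.5 to 368.2 in IGF1R-caPI3K, 138.8 to 399.3 in IGF1R-dnPI3K and 324.9 to 367.2 in IGF1R, and on 100062_at 112.3 to 145.3 in IGF1R-caPI3K, 54.9 to 124.3 in IGF1R-dnPI3K and 95.6 to 131.2 in IGF1R. For Mcm4 the values were 203.7 to 285.8 in IGF1R-caPI3K, 141.9 to 238.8 in IGF1R-dnPI3K and 210.5 to 296.8 in IGF1R (-0.53 ± 0.24 in IGF1R-dnPI3K against IGF1R, unadjusted p = 0.04828 in limma, adjusted p = 0.1524), and for Mcm7 they were 201 to 306.1 in IGF1R-caPI3K, 243.3 to 268.6 in IGF1R-dnPI3K and 164.9 to 335.6 in IGF1R. Cdc45, which joins the MCM ring in the active helicase, had 245.5 to 279.4 in IGF1R-caPI3K, 247.7 to 291.6 in IGF1R-dnPI3K and 210.7 to 251.6 in IGF1R. The IGF1R-dnPI3K range of Mcm3 and Mcm4 on each of these probe sets was topped by mouse 1.

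At the replication fork, Pcna, the sliding clamp of the DNA polymerases, was lower in IGF1R-dnPI3K than in IGF1R hearts. It read 928.8, 798.2 and 683.5 in IGF1R-caPI3K, 737.7, 629.3 and 481.3 in IGF1R-dnPI3K, and 921.2, 1004 and 847.8 in IGF1R. No IGF1R-dnPI3K mouse reached the lowest IGF1R mouse, and IGF1R-caPI3K overlapped both groups. Pcna fell by 0.60 ± 0.17 on the log2 scale in IGF1R-dnPI3K (adjusted p = 0.04431, 0.658-fold). That call is close to the threshold: it held in 6 of 20 alternatives, and was lost with quantile normalization (-0.52, adjusted p = 0.05224), with a common median (-0.43, adjusted p = 0.07689), with the number series as a block (-0.37, adjusted p = 0.5991) and without any 1 mouse other than IGF1R-dnPI3K mouse 1 (-0.66 to -0.44, adjusted p 0.05467 to 0.1263). In the number series with 1 mouse of each group, Pcna read 928.8 in IGF1R-caPI3K and 737.7 in IGF1R-dnPI3K, against 847.8 in IGF1R. Against IGF1R, IGF1R-caPI3K gave -0.21 ± 0.17 (adjusted p = 0.5511).

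The polymerase subunit Pola1 had 131.7 to 150.2 in IGF1R-caPI3K, 159.5 to 182.2 in IGF1R-dnPI3K and 137.9 to 176.7 in IGF1R, and the crosses did not overlap (-0.32 ± 0.20, adjusted p = 0.4778). Fen1, the flap endonuclease, had 104.6 to 150.5 in IGF1R-caPI3K, 98.3 to 130.4 in IGF1R-dnPI3K and 100.5 to 151.3 in IGF1R. Lig1, the ligase that joins Okazaki fragments, gave discordant probe sets: 162004_i_at read 96.7 to 160 in IGF1R-caPI3K, 87.3 to 179.5 in IGF1R-dnPI3K and 139.6 to 180.8 in IGF1R, whereas 92551_at read 106.7, 87.7 and 184 in IGF1R-caPI3K, 66.2, 53.9 and 55.8 in IGF1R-dnPI3K, and 40.3, 45 and 49 in IGF1R. The 3 groups were fully separated on that second probe set, which the filter left without a test. Only 4 arrays, those of IGF1R-caPI3K and IGF1R-dnPI3K mouse 1, were above the highest Y-linked signal of 59.4. The order of IGF1R-dnPI3K over IGF1R therefore lay mostly within signals that a probe set without a target can give. Prim1, a primase subunit, stayed at or under 34.7.

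The nucleotide synthesis genes gave 0 calls in limma, with 1 of 2 probe sets at an unadjusted p under 0.05 in IGF1R-dnPI3K against IGF1R, 1 between the crosses and 0 in IGF1R-caPI3K against IGF1R. Tk1, the thymidine kinase of S phase, read 358.4, 351.1 and 291.8 on 96081_at in IGF1R-caPI3K, 144.8, 290.5 and 69 in IGF1R-dnPI3K, and 235.2, 430.9 and 312.1 in IGF1R. The lowest IGF1R-caPI3K mouse and the highest IGF1R-dnPI3K mouse, 291.8 and 290.5, nearly met. The log2 difference between them was 1.22 ± 0.42 (adjusted p = 0.2093), and that of IGF1R-dnPI3K from IGF1R, with overlap, was -1.15 ± 0.42 (adjusted p = 0.08977). The difference from IGF1R was -1.66 without IGF1R-dnPI3K mouse 2 (adjusted p = 0.02354) and -0.62 without the low mouse 3 (adjusted p = 0.2433), and over 20 alternatives its adjusted p ran up to 0.5601. Its other probe set was at 21.8 to 37.9 on 8 arrays and 139.4 on IGF1R mouse 3, and was not tested. Rrm1, the large subunit of ribonucleotide reductase, had 69 to 166.5 in IGF1R-caPI3K, 57.4 to 124.8 in IGF1R-dnPI3K and 45 to 117.7 in IGF1R on 100612_at, with wide overlap. Rrm2, the small subunit, read 94.6 to 113.5 in IGF1R-caPI3K, 81.7 to 87.9 in IGF1R-dnPI3K and 103.5 to 121.1 in IGF1R, and was not tested.

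The mitosis genes gave 0 calls in limma in any comparison, 1 of their 6 probe sets tested, that of Mad2l1, had groups apart, and 0 had an unadjusted p under 0.05. Stmn1, which destabilises microtubules, read 647.1 to 821.2 in IGF1R-caPI3K, 583.1 to 811 in IGF1R-dnPI3K and 617.9 to 829.2 in IGF1R, with log2 differences from IGF1R of 0.06 ± 0.17 in each cross. Cdc20, an activator of the anaphase-promoting complex, had 298.1 to 377.6 in IGF1R-caPI3K, 301.5 to 406.9 in IGF1R-dnPI3K and 248.8 to 431.1 in IGF1R. Mki67, the gene of the proliferation marker Ki-67, had 166.2 to 249.5 in IGF1R-caPI3K, 161 to 279.8 in IGF1R-dnPI3K and 204.7 to 289.2 in IGF1R on 161931_r_at. Its intervals reach from -0.70 to 0.42 for IGF1R-caPI3K and from -0.77 to 0.35 for IGF1R-dnPI3K against IGF1R. The second Mki67 probe set, 99457_at, was not tested. It read 47.1 to 70.2 in IGF1R-caPI3K, 72.4, 6.6 and 10.1 in IGF1R-dnPI3K, and 21 to 98.2 in IGF1R. Mad2l1, of the spindle checkpoint, was 154.9 to 203.7 in IGF1R-caPI3K, 122.4 to 221.9 in IGF1R-dnPI3K and 206.2 to 285.1 in IGF1R, apart in IGF1R-caPI3K (-0.43 ± 0.25, adjusted p = 0.3857). The polo-like kinase Plk1 had discordant probe sets: in IGF1R-dnPI3K against IGF1R, 101350_g_at gave 0.51 ± 0.27 and 161292_f_at -0.89 ± 0.49, and neither passed. Signals of Aurka, Birc5, Bub1 and Top2a, none of them tested, lay between 2.4 and 109.1.

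The largest log2 difference of the 41 belonged to the checkpoint gene Hus1, a member of the clamp with Rad9 and Rad1 that signals DNA damage. Probe set 92504_at read 323.2, 396.5 and 351.3 in IGF1R-caPI3K, 69.6, 172.3 and 38.1 in IGF1R-dnPI3K, and 23.3, 26.5 and 31 in IGF1R. The IGF1R mice were all under the floor of 32.4, and the 3 groups did not overlap. Passing the filter rested on the 3 IGF1R-caPI3K arrays and 1 of IGF1R-dnPI3K. The log2 estimate of IGF1R-caPI3K against IGF1R was 3.46 ± 0.47 (interval 2.43 to 4.48, adjusted p = 0.03876 in limma). Its size depends on the floor to which the IGF1R values were set, and ran from 1.69 to 3.73 over 20 alternatives. IGF1R-dnPI3K did not pass against IGF1R (adjusted p = 0.09273), and its level rested on mouse 2: without it the geometric mean of the other 2 mice was 51.5, under the Y-linked mark (estimate 0.67, adjusted p = 0.2484), and without mouse 3 it was 109.5 (1.76, adjusted p = 0.02492). The crosses differed by 2.21 ± 0.47 (adjusted p = 0.05022), and passed without IGF1R-dnPI3K mouse 1 (2.13, adjusted p = 0.03986) or 2 (2.79, adjusted p = 0.0179) but not without mouse 3 (1.70, adjusted p = 0.08736). The adjusted p in IGF1R-caPI3K ran from 0.00169 to 0.169 over 20 alternatives, 12 of which kept the call, which was lost without any 1 mouse of these 2 groups (0.09684 to 0.169). The adjusted p was 0.06913 with the number series as a block, at an estimate of 3.46.

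The other Hus1 probe sets did not follow. 92503_at read 114.1, 137.9 and 108.8 in IGF1R-caPI3K, 150.3, 80.3 and 67 in IGF1R-dnPI3K, and 130, 178.5 and 154.4 in IGF1R, with log2 differences from IGF1R of -0.36 ± 0.32 in IGF1R-caPI3K and -0.72 ± 0.32 in IGF1R-dnPI3K. 92505_g_at, which the annotation ties to the same transcript accession as 92504_at, read 36.5 to 60.3 in IGF1R-caPI3K, 19.3 to 27.7 in IGF1R-dnPI3K and 16.8 to 79.4 in IGF1R and was not tested. Hus1 therefore had 1 probe set that rose and another in the same comparison whose estimate was below 0. Chek1, a checkpoint kinase, was at 77.2 to 97 in IGF1R-caPI3K, 67.6 to 111.5 in IGF1R-dnPI3K and 73.8 to 139.6 in IGF1R, and was not tested.

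**Figure D4:**
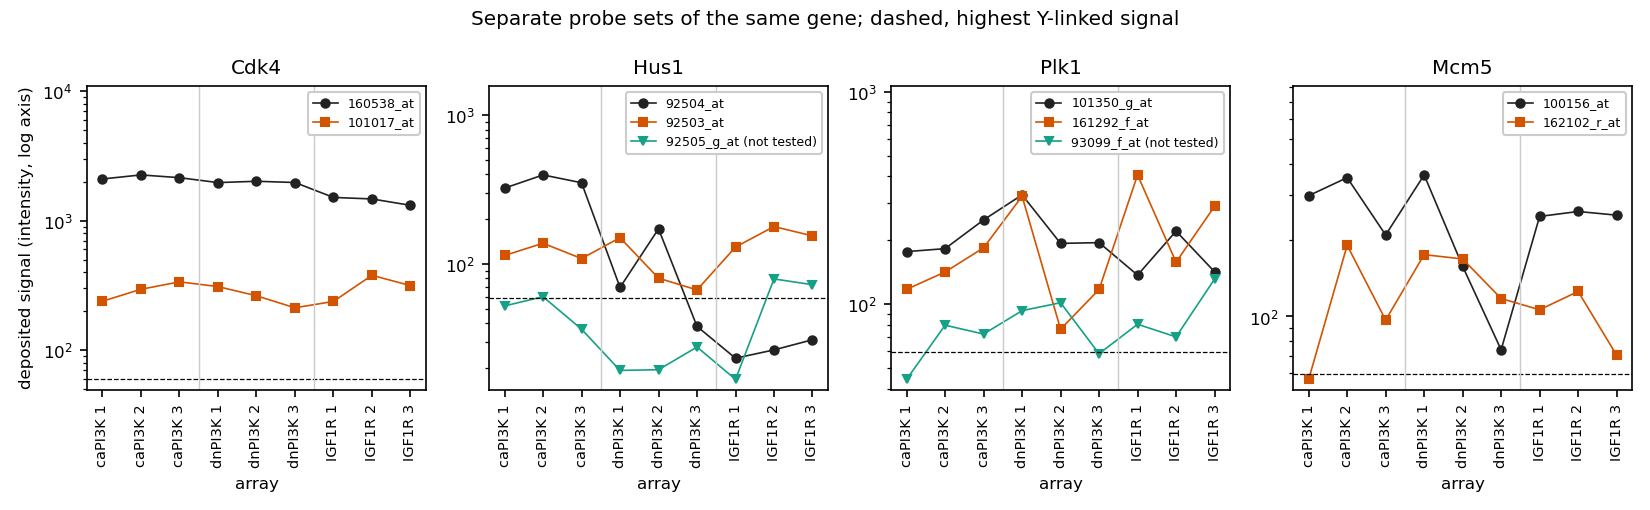
Deposited signal (log axis) on the 9 arrays, in the order IGF1R-caPI3K, IGF1R-dnPI3K and IGF1R, for each probe set of Cdk4, Hus1, Plk1 and Mcm5. The Cdk4 and Hus1 probe sets that passed the test rise above the IGF1R arrays while the other probe sets of these genes do not, and the dashed line is the highest Y-linked signal.

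The order of the mice within a group was uneven over the members, and whether the members vary together was not tested. In IGF1R-caPI3K, mouse 2 was the highest of its group for 18 of the 41 probe sets (43.9%), against 34.5% of all, and mouse 3 the lowest for 20 (48.8%), against 34.6%. IGF1R-dnPI3K mouse 1 was the highest of its group for 27 of the 41 probe sets (65.9%), against 41% of all probe sets tested, and mouse 3 was the lowest for 25 (61%), against 44.4%. In IGF1R, mouse 2 was the highest for 26 (63.4%), against 35.2%, and mouse 1 the lowest for 25 (61%), against 34.6%. The median SD of log2 signal was 0.221 in IGF1R-caPI3K, 0.421 in IGF1R-dnPI3K and 0.233 in IGF1R over the members. Over all probe sets tested it was 0.156 in IGF1R-caPI3K, 0.261 in IGF1R-dnPI3K and 0.164 in IGF1R. The summed signal of the 46 genes, tested or not, was 13505.8 to 14611.8 in IGF1R-caPI3K, 10787.3 to 14375.1 in IGF1R-dnPI3K and 11532.2 to 13616.9 in IGF1R. Bright probe sets weigh most in such a sum. Without IGF1R-dnPI3K mouse 1, 13 of the 41 probe sets passed against IGF1R, 2 higher (Cdk4 and Ccne1) and 11 lower: Ccnb2, Cdc25c, Cks1b, Hus1 on 92503_at, Mcm3, Mcm4, Mcm5, Pcna, Plk1, Rb1 and Rbl1. That is 31.7% of the members' probe sets, against 23.6% of all probe sets tested (1861 of 7898). Without IGF1R-dnPI3K mouse 3, 3 of the 41 passed, all higher (Cdk4, Ccne1 and Hus1), or 7.32% against 8.26% of all, and the median log2 difference of the 41 was 0.004, against -0.29 without mouse 1.

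**Figure D5:**
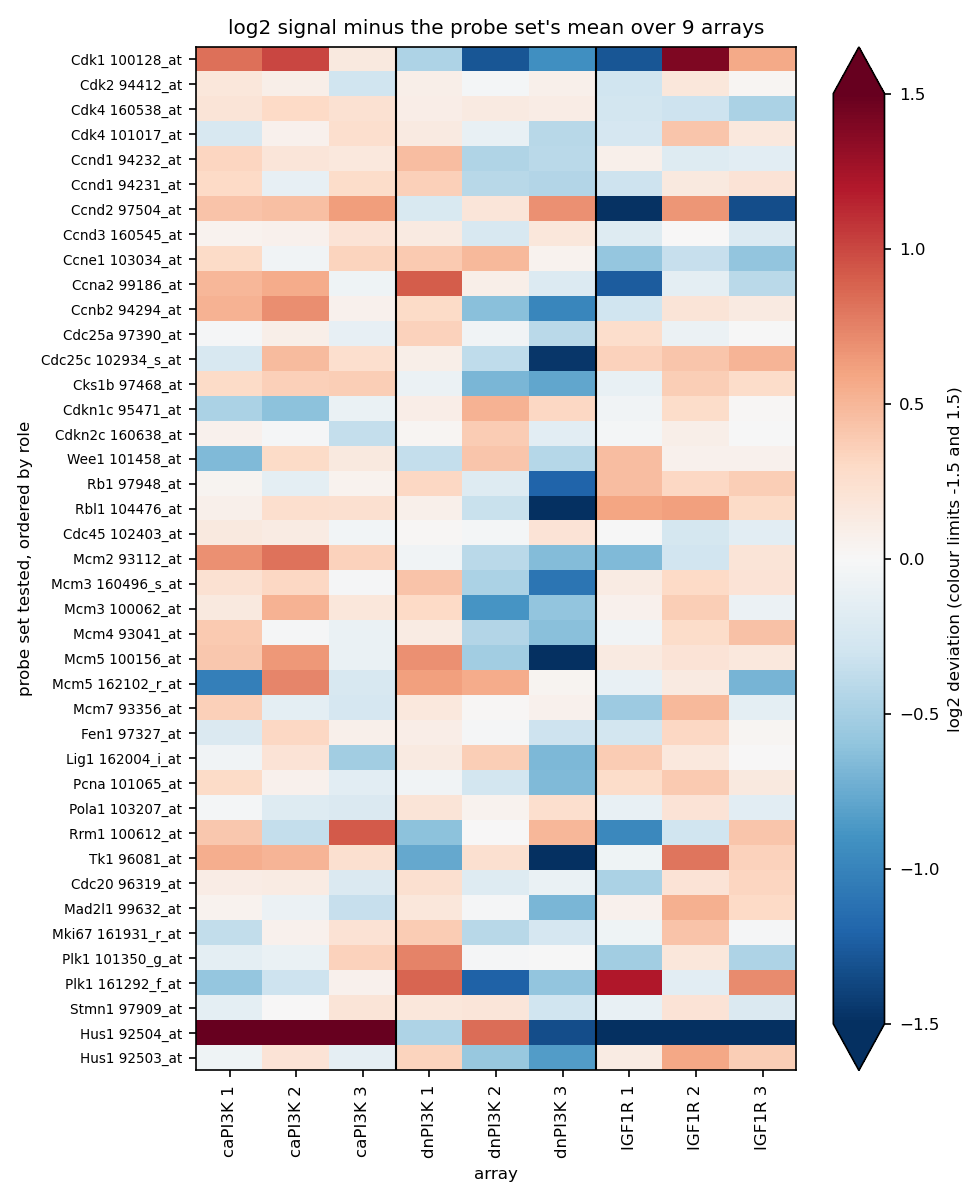
Log2 signal minus the mean over the 9 arrays (colour, limits -1.5 to 1.5) for the 41 probe sets tested, ordered by role down the page, with the arrays of IGF1R-caPI3K, IGF1R-dnPI3K and IGF1R from left to right. The column of IGF1R-dnPI3K mouse 3 is mostly blue, with a median deviation of -0.415, and that of IGF1R-dnPI3K mouse 1 is mostly red, with 0.134. The median deviation was higher still for IGF1R mouse 2, at 0.202, and IGF1R-caPI3K mouse 1, at 0.146.

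A list of 179 other cell cycle genes had 142 with a probe set and 104 tested. In limma, 0 of the 104 passed in IGF1R-caPI3K against IGF1R, against 0.215% of all probe sets tested. At an unadjusted p under 0.05 there were 13 of the 104, counted with 1 probe set a gene, against 18.4% of all probe sets tested. Between the crosses 0 passed, against 1.24% of all, and 17 of the 104 did unadjusted, against 15.4%. In IGF1R-dnPI3K against IGF1R, 31 of the 104 had an unadjusted p under 0.05, against 32.2% of all. Past the adjusted threshold, 6 of the 104 rose and 7 fell. That is close to the share of all probe sets tested (13.5%, with 5.7% higher and 7.8% lower), so the count is not read as a result about the list. Among those that fell were Mdm2, the ubiquitin ligase of p53 (-0.83 ± 0.17, adjusted p = 0.01633), Orc4, of the origin recognition complex (-0.66 ± 0.14, adjusted p = 0.01736), and Ccng1, a cyclin induced by p53 (-0.83 ± 0.19, adjusted p = 0.02424). Ccnc (-1.24), the polymerase epsilon subunit Pole4 (-0.92), the cohesin subunit Stag1 (-0.80) and the condensin subunit Smc4 (-0.64) fell too. Of the genes that rose, Anapc5 and Ube2s serve the anaphase-promoting complex (0.75 ± 0.15 for Anapc5, adjusted p = 0.01622, and 0.51 ± 0.13 for Ube2s, adjusted p = 0.03033). The others were the stress gene Gadd45b (1.40), the inhibitor Cdkn2d (0.66), the polymerase delta subunit Pold2 (513.3 ± 271.7 in IGF1R-dnPI3K and 162.5 ± 40.3 in IGF1R, signal ± SD, n = 3 each; adjusted p = 0.03714 in limma) and the inhibitor Cdkn1a, the p21 protein (1.17 ± 0.34, adjusted p = 0.04644), which is named outside the rule, after its value was seen.

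Markers of the cells that could hold these transcripts moved as well in IGF1R-dnPI3K. Over all probe sets tested there, 5.7% rose and 7.8% fell. Of 12 fibroblast genes tested, 5 fell against IGF1R, Lum (-1.16 ± 0.21, adjusted p = 0.01431) and Postn (-1.80 ± 0.39, adjusted p = 0.01915) with the lowest p. Their summed signal was 34415.3 to 38225.6 in IGF1R-caPI3K, 22860.6 to 27332.5 in IGF1R-dnPI3K and 31659.7 to 34946.3 in IGF1R. Of 8 macrophage and myeloid genes tested, of 12 with a probe set, 3 fell, Csf1r (-0.71 ± 0.13, adjusted p = 0.01384) and Lyz2 (-0.99 ± 0.20, adjusted p = 0.01685) first, with sums of 7377.8 to 7951.7 in IGF1R-caPI3K, 4235.4 to 6331.6 in IGF1R-dnPI3K and 6766.8 to 7734.9 in IGF1R. IGF1R-dnPI3K mouse 1 had the highest sum of its group in both lists, 27332.5 and 6331.6, as it had for the members. In IGF1R-caPI3K and in IGF1R, mouse 2 had the highest member sum of its group. That mouse had the lowest fibroblast sum of its group (34415.3 in IGF1R-caPI3K and 31659.7 in IGF1R). Its myeloid sum was the highest (7951.7 in IGF1R-caPI3K and 7734.9 in IGF1R). Of 10 endothelial genes in IGF1R-dnPI3K against IGF1R, 3 fell, Kdr (-1.17 ± 0.25, adjusted p = 0.01853) and Cd34 (-0.68 ± 0.16, adjusted p = 0.02514) first, and 1 rose. Of 12 cardiomyocyte genes 4 rose and 1 fell, with Ryr2 (-0.55 ± 0.11, adjusted p = 0.01699) and Myl2 (0.47 ± 0.12, adjusted p = 0.02806) first. All 12 passed the filter, as the ventricular label asks, and their summed signal was 186103.7 to 195652.6 in IGF1R-caPI3K, 201307.7 to 249432.2 in IGF1R-dnPI3K (highest in mouse 3) and 174739.8 to 187120.4 in IGF1R. The endothelial sums were 10930.2 to 12274.2 in IGF1R-caPI3K, 10474.6 to 13269.2 in IGF1R-dnPI3K (highest in mouse 3) and 12132.7 to 13915.6 in IGF1R. The part of these markers in the members' differences was not tested.

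In IGF1R-caPI3K against IGF1R, the cardiomyocyte gene Ryr2 fell (-0.70 ± 0.11, adjusted p = 0.04644), as did 1 lymphocyte gene of 3 tested, Cd79a (-1.83 ± 0.22, adjusted p = 0.0178). The lymphocyte list did not fall with Cd79a: the median log2 difference of the 3 genes was 0.917. Of the 3, 2 had an unadjusted p under 0.05 in limma. Ckm gave discordant probe sets, with -0.59 ± 0.10 on 161569_f_at (adjusted p = 0.0482) and 0.79 on its other one. The lists of fibroblasts, endothelial cells, myeloid cells, smooth muscle cells and pericytes, and red blood cells gave 0 calls there in limma, with at most 6 genes of a list, the endothelial one, at an unadjusted p under 0.05. Between the crosses, 4 of 12 fibroblast genes (Postn first, 2.01 ± 0.39, adjusted p = 0.03704) and the endothelial Cd34 were higher in IGF1R-caPI3K, and Cd79a was lower. Of the 8 myeloid genes tested 0 passed in limma, but all 8 had an unadjusted p under 0.05. Their median log2 difference was 0.654, against 0.045 over all genes tested. Over all probe sets tested, 1.24% passed between the crosses and 15.4% had an unadjusted p under 0.05. The 6 smooth muscle and pericyte genes and the 4 red blood cell genes tested gave 0 calls in limma in each comparison, with at most 2 at an unadjusted p under 0.05. The summed red blood cell signal was 44582.6 in IGF1R-dnPI3K mouse 3, the array that stood apart, against 26232.6 to 30225.5 on the other 8 arrays, and its part in that array's low member signals was not tested.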

How the data were processed

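Total RNA of 9 ventricle samples was hybridised to Affymetrix mouse arrays, per the labels. The deposited values were taken as linear intensity from their range, since no unit is stated, and the authors had scaled each array to a common trimmed mean. The sources used here do not name the summary algorithm or its version. Of 12488 probe sets 66 were controls, 10833 had 1 gene symbol in the platform annotation (10817 of them found in RefSeq, with 0 symbols changed) and 396 had several. Values under 32.4 (the 20th percentile of those over 0) were set to that floor before log2. Of 12422 probe sets, the 7898 that exceeded an array's 40th percentile on 3 or more arrays were fitted with limma 3.58.1 (R 4.3.3, statmod 1.5.0; lmFit, eBayes with trend) over all 9 arrays, with Benjamini-Hochberg adjustment and a threshold of 0.05. The script was tested on simulated data.

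Groups come from the titles. Each p-value uses a spread estimated over all 3 groups of 3 mice, not only over the 2 groups compared. The members' median SD of log2 signal was larger in IGF1R-dnPI3K (0.421) than in IGF1R-caPI3K (0.221) or IGF1R (0.233). The number of arrays limits the precision. Tables and figures used Python 3.11.15, numpy 2.4.6, pandas 2.3.3, scipy 1.17.1 and matplotlib 3.10.9. The 50 members, the other gene lists and the tests were chosen with earlier results of these data known. Values on every array are given for members past the threshold, or with groups apart, an unadjusted p under 0.05 and a log2 difference of at least 0.5. Of the other cell cycle genes up to 12 that passed, and of each marker list up to 2, are named by lowest p. A gene counted once is taken by its probe set with the highest mean. The alternatives were another normalization, floor or filter, a pseudocount of 16, fits of 2 groups, no trend, array weights, the number series as a block and each mouse left out.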

Additional observations from a re-analysis of the deposited data

How the results depend on the processing

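The precision rests on 3 mice a group, and many members were near the signal of probe sets without a target, so that a p above the threshold does not show that levels were alike. No paired analysis was possible because the replicates were numbered in the order of the samples and the numbers pair no mice. The number series was used as a block, though its meaning is not given and the IGF1R-dnPI3K estimates then rest on 1 mouse. The cause of the changes below was not tested. Rb1, Rbl1, Cdc25c, Cdk1 and Mcm2 failed the stricter filter and had no value there.

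For IGF1R-caPI3K against IGF1R, 17 probe sets passed as reported, 77 with quantile normalization, 3 with a common median, 67 with the floor at the 40th percentile, 0 without a filter, 59 with the stricter filter, 699 with only the 2 groups, 7 without the trend, 777 with array weights and 1 with the number series as a block. With 1 mouse left out, 0 to 550 passed, with 550 without IGF1R-dnPI3K mouse 3, 89 without IGF1R-dnPI3K mouse 1 and at most 15 otherwise. Of the members' probe sets 2 passed as reported, 1 with a common median, 0 without a filter, 1 without the trend, 0 with the block and 0 to 3 with 1 mouse left out.

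For IGF1R-dnPI3K against IGF1R, 1066 passed as reported, 387 without a filter, 132 with only the 2 groups, 657 without the trend, 5 with the block and 73 to 1861 with 1 mouse left out (1861 without IGF1R-dnPI3K mouse 1, 201 without IGF1R mouse 2, 208 without IGF1R mouse 1, 73 without IGF1R mouse 3). Of the members' probe sets 3 passed as reported, 0 with only the 2 groups, 5 with array weights, 0 with the block and 0 to 13 with 1 mouse left out.

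Between the crosses, 98 passed as reported, 36 without a filter, 13 with only the 2 groups, 45 without the trend, 348 with array weights, 8 with the block and 10 to 539 with 1 mouse left out (539 without IGF1R-dnPI3K mouse 1). Of the members' probe sets 0 passed in limma as reported (8 at an unadjusted p under 0.05). With quantile normalization, the floor at the 40th percentile or the pseudocount, 1 passed, that of Hus1. With array weights 2 passed, those of Cdkn1c and Cks1b, and with 1 mouse left out 0 to 7.

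No estimate of a call as reported changed sign. Between the crosses, with the block, the estimates of Rb1 (-0.31), Rbl1 (-0.05), Cdc25c (-0.09) and Ccna2 (-0.40) turned below 0. With 1 mouse left out, that of Rb1 lay between -0.08 (without IGF1R-dnPI3K mouse 3) and 0.68. Ccna2 was -0.01 with quantile normalization, -0.00 with a common median, -0.02 without IGF1R-caPI3K mouse 1, -0.05 without IGF1R-caPI3K mouse 2, -0.02 without IGF1R-dnPI3K mouse 2 and -0.17 without IGF1R-dnPI3K mouse 3, and reached 0.39 without IGF1R-dnPI3K mouse 1. In IGF1R-caPI3K against IGF1R, Cdk1 was -0.05 with the floor at the 40th percentile and, with 1 mouse left out, between -0.33 (IGF1R mouse 1) and 1.02, and Tk1 was between -0.14 (IGF1R mouse 1) and 0.29. In IGF1R-dnPI3K against IGF1R, Mcm2 was 0.06 with quantile normalization, 0.05 with a common median, 0.02 without IGF1R-dnPI3K mouse 3 and 0.10 without IGF1R mouse 3, and -0.32 at its lowest, without IGF1R mouse 1. Cdk4 passed under 16 of 20 alternatives in IGF1R-dnPI3K and 9 of 20 in IGF1R-caPI3K, Ccne1 under 16 of 20 in IGF1R-dnPI3K, Hus1 under 12 of 20 in IGF1R-caPI3K and Pcna under 6 of 20 in IGF1R-dnPI3K.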
